A study of Mus musculus with 6 samples.

Results

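This is an account of 47 genes of DNA repair in mouse blood progenitors, among them 8 genes of the Fanconi anaemia pathway, whose names were listed by repair route. Each gene was read through the brightest of the probe sets annotated to it alone, and all 47 had one, out of 18192 genes measured. The study asked how forced expression of the transcription factor EVI1 alters gene expression in lineage-negative (Lin-) haematopoietic progenitors. The cells came from C57BL/6J mice carrying the doxycycline-dependent transactivator Rosa26rtTA, which all samples share. The EGFP-positive group (3 arrays) was transduced with the vector pRRL.TET.EVI1.IRES.EGFP, from which doxycycline switches on EVI1 and EGFP together, and was sorted for high EGFP. The EGFP-negative group (3 arrays) is labelled untransduced, while the design text describes it as the cells of negative or low EGFP sorted from the transduced culture. The design text gives doxycycline at 1 µg/ml and a sort 20 hours later. The medium of both groups held mouse stem cell factor at 50 ng/ml, mouse interleukin-3 at 20 ng/ml, and human Flt-3 ligand and human interleukin-11 at 50 ng/ml each. The sources used here give neither the age nor the number of the animals. They do not say that replicates were separate cultures either, so the p-values rest on a spread between arrays that may be technical.

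DNA repair is a set of partly separate routes. Homologous recombination copies a break from the sister chromatid and so works mainly in S and G2 phase, and the Fanconi anaemia pathway unhooks crosslinks between the strands and hands the break to it. End joining reseals breaks at any phase. Mismatch, base excision and nucleotide excision repair replace single bases or short stretches, and the sensor kinases stop the cycle while this goes on. In blood formation the Fanconi genes are known for the marrow failure that follows their loss, and many recombination genes are transcribed mostly in cycling cells.

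All values are log2 expression made by RMA, differences are EGFP-positive minus EGFP-negative, and "rose", "fell" and "called" mean a Benjamini-Hochberg adjusted p under 0.05 over all 18192 genes in limma's moderated test. Array medians lay between 5.11 and 5.14, and Pearson's r across probe sets was 0.989 to 0.995 within groups and 0.968 to 0.969 between them. The 3' end signal exceeded the 5' end signal by 0.76 to 0.86 for Actb on the EGFP-negative arrays and by 0.97 to 1.03 on the EGFP-positive arrays, and by 0.80 to 0.84 and 1.03 to 1.10 for Gapdh. This sign of RNA quality moved with the groups, and its part in the results was not tested. The brightest Mecom probe set, which reads the mouse gene of EVI1, had 8.26 ± 0.09 and 7.97 ± 0.20 (SD, n = 3; adjusted p = 0.13 over genes), and its exact permutation p was 0.2 where 0.1 is the smallest possible. No source used here says whether the vector's transcript carries the sequence these probes read, so the level checks nothing about the labels. Of the marker lists, 7 of 7 neutrophil genes, 5 of 5 monocyte genes and 5 of 5 mast cell and basophil genes fell, 4 of 6 progenitor genes fell, and 4 of 5 erythroid and 3 of 5 megakaryocyte genes rose. Of the lymphoid lists, 1 of 4 B cell genes rose and 1 of 3 T cell genes fell. The mean neutrophil marker level ran from 11.68 to 11.82 on EGFP-negative arrays and from 9.09 to 9.27 on EGFP-positive arrays, and the mean erythroid level from 4.53 to 4.72 and from 6.63 to 6.72. In the same order the monocyte mean ran from 8.55 to 8.69 and from 6.49 to 6.69, the mast cell and basophil mean from 10.94 to 10.95 and from 8.44 to 8.66, and the progenitor mean from 9.90 to 9.98 and from 8.90 to 9.03. The megakaryocyte mean ran from 7.5 to 7.57 and from 8.66 to 8.70, the B cell mean from 4.32 to 4.59 and from 4.55 to 4.76, and the T cell mean from 4.13 to 4.32 and from 3.27 to 3.53. The part of these cell types in the repair gene differences was not tested. The B cell gene Pax5 and the T cell gene Cd3g lay on every array under 3.61, the highest value of the bacterial control probe sets and the ceiling of background used here. Because each array holds a whole sorted fraction, fewer cells of a type and less RNA per cell cannot be told apart.

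Most repair genes that passed the test were lower in the EGFP-positive cells. Of the 47 genes, 22 fell, 4 rose and 21 did not pass, where 17.2% of all genes fell and 16.0% rose (limma, Benjamini-Hochberg). The share that fell among these genes was 46.8%, and the share that rose was 8.51%. No filter on dim genes was used, so the shares of all genes include genes under the background ceiling. Of the 47 only Bard1 had arrays under it, so the sets compared are not of like brightness. Among them 11 fell by at least 2-fold, against 6.24% of all genes, and 1 rose by as much, against 5.95%. Their median difference was -0.48, while that of all genes was 0.02. In 26 genes all EGFP-positive arrays lay below all EGFP-negative arrays and in 4 all lay above, where such separation holds for 24.4% and 23.8% of all genes, and for 48.2% in either direction. By route the median was -1.30 in homologous recombination, -0.80 in the Fanconi anaemia pathway, -0.72 in base excision and single-strand break repair and -0.55 in damage sensing. It was -0.22 in end joining, 0.04 in mismatch repair and 0.06 in nucleotide excision repair. Without EGFP-positive replicate 2 the end joining median was -0.071 and without replicate 3 it was -0.43, and without EGFP-positive replicate 1 that of mismatch repair was -0.022. Among genes brighter than the median gene, the Fanconi median was -0.32 (5 genes) and that of damage sensing -0.29 (5 genes). For repair genes outside the 47, read further below, the base excision median was 0.03 (12 genes). Those of recombination, Fanconi genes and damage sensing were -0.72, -0.44 and -0.53. Those of end joining, mismatch repair (2 genes) and nucleotide excision repair were -0.21, -0.23 and -0.08.

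**Figure D1:**
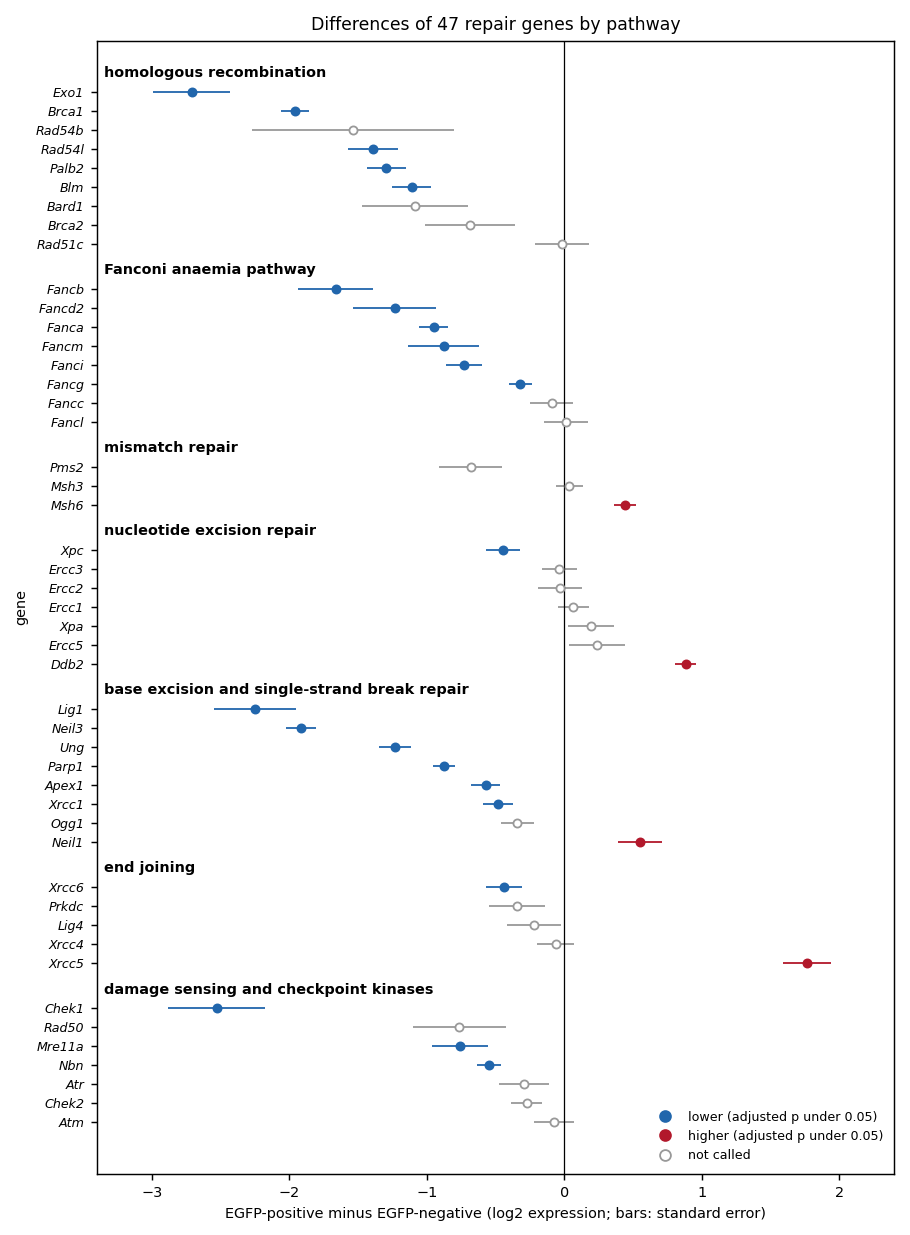
Difference of each repair gene (x axis, log2 expression, EGFP-positive minus EGFP-negative) by repair route (y axis), with 3 arrays per group; bars are limma's standard error and filled points passed an adjusted p of 0.05. The points of homologous recombination and Fanconi genes lie at or left of 0.01, those of nucleotide excision repair run from -0.45 (Xpc) to 0.88 (Ddb2), and Xrcc5 lies farthest to the right at 1.76.

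Genes of proliferation moved with these groups. On a list of 21 measured proliferation genes, 21 fell and 0 rose, with a median of -1.78. Their smallest p were those of Rrm1, a subunit of ribonucleotide reductase (-2.18, SE 0.10), of Pcna, the sliding clamp of replication (-1.92, SE 0.09), and of the cyclin gene Ccna2 (-1.75, SE 0.08). Of the 47 repair genes, 14 are ones whose transcripts are known to peak around S phase. Of these 11 fell and 1 rose, with a median of -1.23. Of the other 33, 11 fell and 3 rose, with a median of -0.29. The part of the proliferation genes in the repair gene differences was not tested.

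**Figure D2:**
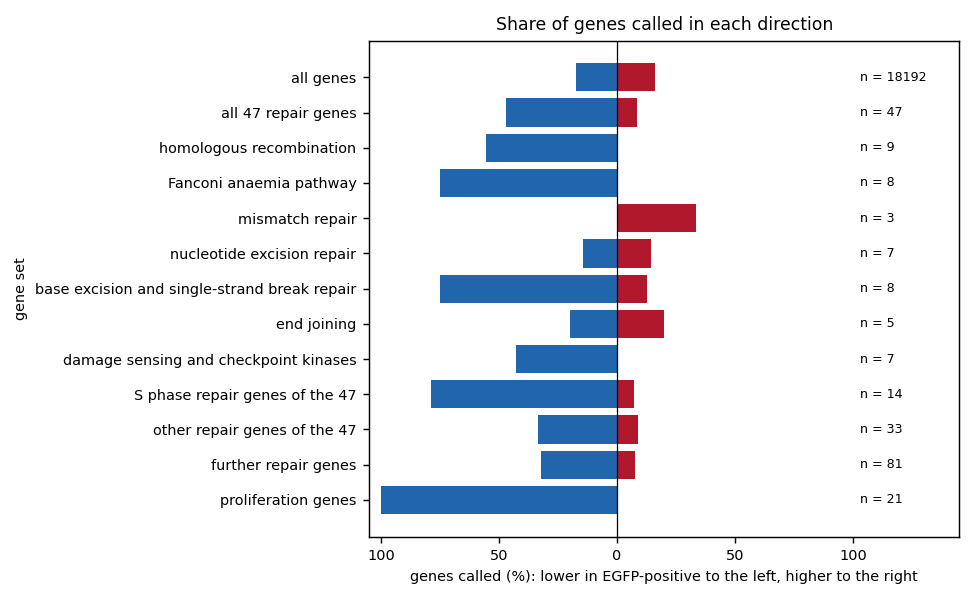
Share of genes (x axis, %) called lower (left, blue) and higher (right, red) in EGFP-positive cells, by gene set (y axis) with the number of genes measured. All genes are nearly balanced at 17.2% and 16.0%, while the 47 repair genes stand at 46.8% and 8.51%.

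Promoters are shown for the called genes with the largest falls and rises that had an entry in RefSeq's promoter table (GRCm38.p6). Each window runs from 250 bases before to 50 after the start, so that a reader can see the sequence there. Capitals mark words of E2F, a family of transcription factors of S phase entry, searched on both strands as TTTGGCGC, TTTCGCGC, TTTCCCGC and TTTGGCGG. Chek1, Lig1 and Brca1 fell, and Xrcc5 and Neil1 rose. For Lig1 the table lists 3 starts, and the window that holds matches is printed.
Chek1: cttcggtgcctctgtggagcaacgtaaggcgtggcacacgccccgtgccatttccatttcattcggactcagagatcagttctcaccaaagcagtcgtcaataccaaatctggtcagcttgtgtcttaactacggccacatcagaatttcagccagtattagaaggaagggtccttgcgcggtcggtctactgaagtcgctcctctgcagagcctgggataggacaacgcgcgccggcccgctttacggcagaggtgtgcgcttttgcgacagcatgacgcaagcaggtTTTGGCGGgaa
Lig1: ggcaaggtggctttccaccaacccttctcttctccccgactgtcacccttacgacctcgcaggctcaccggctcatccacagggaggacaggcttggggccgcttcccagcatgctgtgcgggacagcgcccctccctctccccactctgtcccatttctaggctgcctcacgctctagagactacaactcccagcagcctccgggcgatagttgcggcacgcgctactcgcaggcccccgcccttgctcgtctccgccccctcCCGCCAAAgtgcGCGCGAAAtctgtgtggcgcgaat
Brca1: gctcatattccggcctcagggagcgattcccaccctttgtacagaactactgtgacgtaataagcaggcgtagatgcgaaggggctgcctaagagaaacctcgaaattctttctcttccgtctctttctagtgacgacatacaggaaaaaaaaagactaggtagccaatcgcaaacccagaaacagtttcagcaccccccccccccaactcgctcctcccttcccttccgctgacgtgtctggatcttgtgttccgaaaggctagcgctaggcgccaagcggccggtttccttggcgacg
Xrcc5: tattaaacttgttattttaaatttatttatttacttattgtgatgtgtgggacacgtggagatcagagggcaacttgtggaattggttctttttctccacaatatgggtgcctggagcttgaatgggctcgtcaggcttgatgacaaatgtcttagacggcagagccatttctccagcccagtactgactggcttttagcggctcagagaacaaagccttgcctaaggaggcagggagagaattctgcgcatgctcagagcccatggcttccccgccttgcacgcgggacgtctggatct
Neil1: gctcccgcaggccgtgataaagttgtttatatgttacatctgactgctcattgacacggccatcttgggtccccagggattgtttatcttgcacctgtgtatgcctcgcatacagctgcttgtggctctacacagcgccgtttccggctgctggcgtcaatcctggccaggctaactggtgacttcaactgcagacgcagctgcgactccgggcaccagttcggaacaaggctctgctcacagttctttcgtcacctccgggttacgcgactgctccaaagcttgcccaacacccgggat
These windows are chr9:36726609-36726908 on the minus strand for Chek1, chr7:13278576-13278875 on the plus strand for Lig1, chr11:101551906-101552205 on the minus strand for Brca1, chr1:72307171-72307470 on the plus strand for Xrcc5 and chr9:57148256-57148555 on the minus strand for Neil1. The Chek1 word begins 40 bases into the transcript, and the Lig1 words begin 15 and 27 bases into it. Over the 38 repair genes with an entry, 11 of 43 windows (25.6%) held an E2F word, against 2.37% of all 32851 windows in the table. Such a word was in a window of 4 of 18 genes that fell (Chek1, Lig1, Fancg and Xrcc6), of 1 of 3 that rose (Msh6) and of 5 of 17 that did not pass (Bard1, Brca2, Chek2, Msh3 and Rad51c). The word CCAAT was in 51.2% of the repair windows and 37.4% of all windows, and TTTGAA, the core of the cell cycle element CHR, in 4.65% and 17.9%. No base composition was matched, and a match is only a description of the letters.

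In homologous recombination 5 of 9 genes fell and 0 rose, each of the 5 by more than 2-fold. Exo1, the exonuclease that widens breaks into single strands and also serves mismatch repair, read 7.20, 7.22 and 6.98 on the EGFP-negative arrays and 4.21, 5.07 and 3.98 on the EGFP-positive arrays. All of its EGFP-positive arrays lay far below, a 6.55-fold fall (-2.71, SE 0.28; adjusted p = 0.00075), the largest of the 47 as read by the brightest probe sets, though not by the mean or the most variable probe set. Brca1, which steers breaks into recombination, read 7.89, 7.76 and 8.01 against 5.81, 5.96 and 6.01. The arrays of each group lay close together, and the 3.89-fold fall (-1.96, SE 0.10) had the smallest adjusted p of the set, 6.7e-05. Palb2, the bridge between the Brca1 and Brca2 proteins, read 6.41, 6.40 and 6.58 against 5.07, 5.45 and 4.98, with no overlap (-1.30, SE 0.14; adjusted p = 0.00094). Rad54l, a motor protein that acts during strand invasion, read 7.08, 6.87 and 6.71 against 5.85, 5.26 and 5.36, again with no overlap (-1.39, SE 0.18; adjusted p = 0.0020). Blm, the helicase that dissolves joined intermediates, read 8.05, 8.08 and 7.72 against 6.88, 6.98 and 6.66 (-1.11, SE 0.14; adjusted p = 0.0017), so each EGFP-positive array was below each EGFP-negative one.

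Of the 4 recombination genes that did not pass, 3 passed once EGFP-positive replicate 2, the highest EGFP-positive array of each, was left out. Leaving out the highest array widens a fall by construction, so a pass without it is no separate support for a fall. Rad54b, a relative of Rad54l, read 7.08, 7.15 and 6.87 on the EGFP-negative arrays and 4.51, 7.31 and 4.66 on the EGFP-positive arrays. EGFP-positive replicate 2 was at the level of the other group while the remaining arrays were far below (-1.54, SE 0.74; adjusted p = 0.17), and without that array the difference was -2.45 with an adjusted p of 0.00034 (0.00034 to 0.37 over all alternatives). Brca2, which acts on the resected single strands, read 7.24, 7.24 and 7.57 against 6.08, 7.39 and 6.53, and replicate 2 was again the high one (-0.69, adjusted p = 0.17, and -1.05 with 0.012 without it, in a range of 0.012 to 0.36). Bard1, the partner of Brca1, read 4.84, 5.41 and 4.55 against 3.34, 4.63 and 3.57, with replicates 1 and 3 under the ceiling of background (-1.09, adjusted p = 0.075). Bard1 passed without replicate 2 (adjusted p = 0.013, with both EGFP-positive arrays left then under the ceiling) and also with all 6 arrays when limma's prior variance followed mean expression (0.035), in a range of 0.013 to 0.20. Rad51c had nearly the same mean in both groups, 6.71 ± 0.29 and 6.69 ± 0.26 (-0.02, SE 0.19; adjusted p = 0.96). Replicate 2 was the highest EGFP-positive array by more than 0.5 in 6 of the 47 genes (Brca2, Bard1, Rad54b, Exo1, Chek1 and Mre11a), or 12.8%, and in 3.45% of all genes. Replicate 1 was highest by that margin in 0 of the 47 and in 3.49% of all genes, and replicate 3 in 3 of the 47 and in 3.87%. Replicate 3 was the lowest by that margin in 4 of the 47 (Fancb, Fancd2, Ercc5 and Chek1), or 8.51%, and in 2.87% of all genes.

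**Figure D3:**
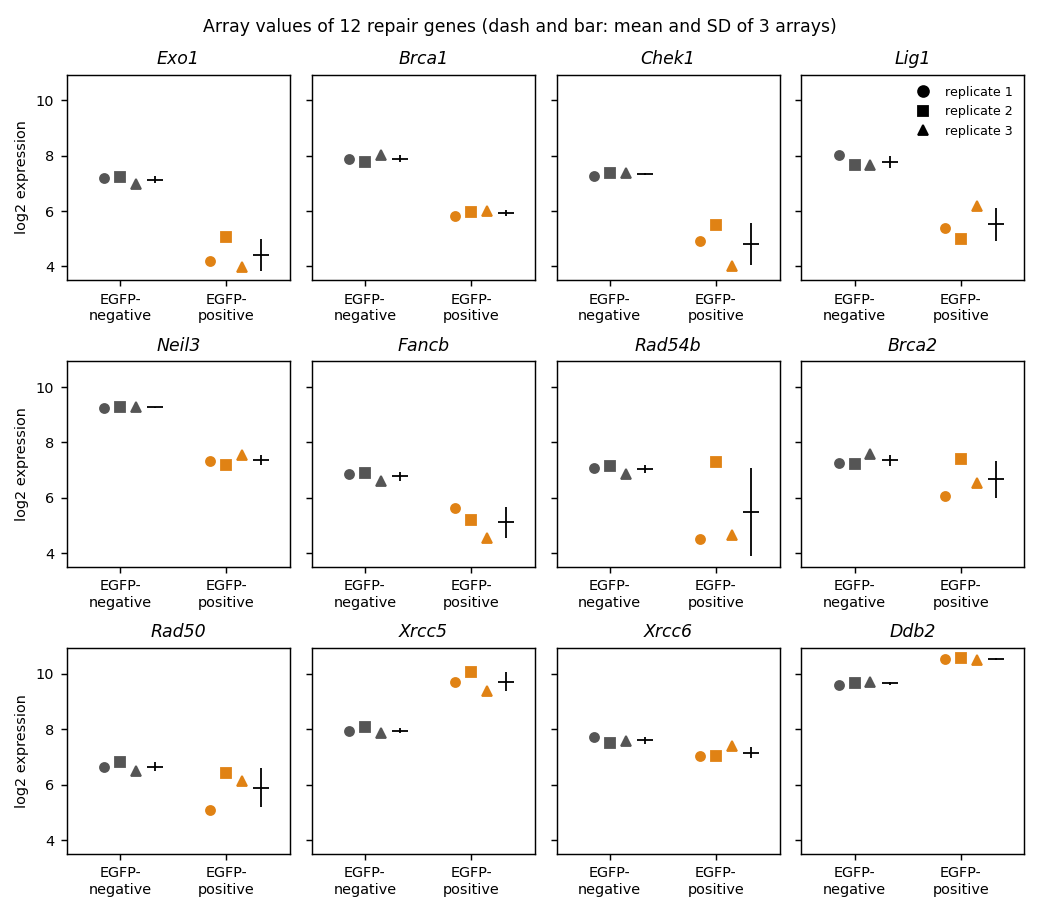
Log2 expression (y axis) of 12 repair genes on each of the 6 arrays, EGFP-negative in grey and EGFP-positive in orange, with the symbol giving the replicate and the dash and bar the mean and SD of 3 arrays. For Rad54b EGFP-positive replicate 2 reads 7.31 beside 4.51 and 4.66, while Brca1 and Neil3 separate cleanly; Xrcc5 is higher and Xrcc6 lower in EGFP-positive cells.

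In the Fanconi anaemia pathway 6 of 8 genes fell and 0 rose. The core complex attaches ubiquitin to the Fancd2 and Fanci proteins, which then sit on the crosslinked DNA. Fancb, a core subunit that binds Fancl, read 6.85, 6.89 and 6.60 against 5.63, 5.20 and 4.54, well apart (-1.66, SE 0.27; adjusted p = 0.0048). Fanca, another core subunit, read 7.36, 7.43 and 7.16 against 6.27, 6.48 and 6.35, also apart (-0.95, SE 0.11; adjusted p = 0.0010). Fancg, which binds Fanca, fell by far less, from 11.05 ± 0.08 to 10.74 ± 0.07 (SD, n = 3; -0.32, adjusted p = 0.032). Fancm, the helicase that anchors the core complex, fell from 5.23 ± 0.46 to 4.36 ± 0.29 (-0.88, adjusted p = 0.044). Fancl, the ubiquitin ligase of the complex, and Fancc did not pass, at 0.01 (SE 0.16) and -0.09 (SE 0.16). Differences of the core subunits named so far ran from -1.66 to 0.01, which is not the range of the whole complex. Of the 8 further Fanconi genes read below, Faap100 (0.26) and Fance (0.22) lay above that range without passing, and 6 had negative differences. Of the pair that receives the ubiquitin, Fancd2 read 5.88, 5.61 and 5.93 against 5.10, 4.72 and 3.90, without overlap (-1.23, SE 0.30; adjusted p = 0.023). Its partner Fanci read 8.31, 7.99 and 7.91 against 7.44, 7.35 and 7.23, also without overlap (-0.73, SE 0.13; adjusted p = 0.0069). The calls of Fancd2, Fancg and Fancm were lost when single arrays were left out, Fancd2 without any 1 EGFP-negative array (adjusted p from 0.051 to 0.080), Fancg without any 1 array other than EGFP-positive replicate 3 (0.054 to 0.11) and Fancm without EGFP-negative or EGFP-positive replicate 1 or 2 (0.095 to 0.12). Fancg and Fancm also lost their calls with the mean of all their probe sets (0.069 and 0.094), and Fancg with its most variable one (0.22). Over all genes, too, leaving out any 1 array lowered the number of calls. Falls went from 3132 to between 2252 and 2959, and rises from 2913 to between 2180 and 2705.

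Base excision and single-strand break repair had 6 falls and 1 rise among 8 genes. The largest falls were those of Lig1 and of 2 glycosylases, enzymes that cut out damaged bases. Lig1, the ligase that seals replicated and repaired strands, read 8.01, 7.66 and 7.65 against 5.39, 5.0 and 6.17, with all EGFP-positive arrays far lower (-2.25, SE 0.30; adjusted p = 0.0021). Neil3, a glycosylase of single-stranded DNA and crosslinks, read 9.26, 9.28 and 9.29 against 7.32, 7.20 and 7.55, with a very tight EGFP-negative group (-1.92, SE 0.11; adjusted p = 9.3e-05). Ung, which removes uracil, read 9.08, 9.0 and 9.17 against 7.72, 7.78 and 8.06, without overlap (-1.23, SE 0.12; adjusted p = 0.00052). Smaller falls were measured for factors that serve many lesions. Parp1, the break sensor that marks sites with poly(ADP-ribose), fell from 11.14 ± 0.06 to 10.26 ± 0.07 (SD, n = 3; -0.88, adjusted p = 0.00051), and Apex1, which cuts at the emptied site, from 9.55 ± 0.13 to 8.98 ± 0.12 (-0.57, adjusted p = 0.0082). Xrcc1, the scaffold of single-strand break repair, fell from 6.92 ± 0.15 to 6.44 ± 0.10 (-0.48, adjusted p = 0.018), a call lost without EGFP-negative replicate 1 (0.063) or 3 (0.061). Ogg1, which removes oxidised guanine, had -0.34 (SE 0.12; adjusted p = 0.076). Neil1, a glycosylase for oxidised bases, went the other way, reading 7.37, 7.62 and 7.36 against 7.82, 7.86 and 8.32 (0.55, SE 0.16; adjusted p = 0.042). The groups of Neil1 did not overlap, but leaving out any single array except EGFP-positive replicate 1 ended its call (adjusted p from 0.056 to 0.13), and it was also lost when each gene was read through its most variable probe set (0.054).

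The end joining genes held the largest rise of the set. Xrcc5, which encodes Ku80, read 7.93, 8.07 and 7.87 on the EGFP-negative arrays and 9.71, 10.07 and 9.39 on the EGFP-positive arrays. Every EGFP-positive array lay more than 1 log2 unit above every EGFP-negative array, a 3.40-fold rise (1.76, SE 0.18; adjusted p = 0.00068), and it rests on the only probe set annotated to that gene alone. Xrcc6, which encodes Ku70, the partner of Ku80 in the ring that grips broken ends, read 7.73, 7.49 and 7.59 against 7.05, 7.04 and 7.40. These groups were also apart, in the opposite direction (-0.44, SE 0.13; adjusted p = 0.046). The Xrcc6 call was lost when any single array except EGFP-positive replicate 3 was left out (adjusted p from 0.076 to 0.14). It was also lost with arrays shifted to the same median (0.060), with the mean of its probe sets (-0.30, adjusted p = 0.25) and with the more variable one (-0.16, adjusted p = 0.69). Prkdc, the kinase that Ku recruits (-0.34, SE 0.20), Lig4, the ligase of this route (-0.22, SE 0.19), and its cofactor Xrcc4 (-0.06, SE 0.14) did not pass. Lig4 alone of these passed without EGFP-positive replicate 3 (-0.43, adjusted p = 0.044, in a range of 0.044 to 0.81).

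In nucleotide excision repair, which removes bulky lesions, 5 of 7 genes did not pass, 1 rose and 1 fell. Ddb2, which recognises ultraviolet damage, read 9.61, 9.67 and 9.70 against 10.53, 10.59 and 10.51. Both groups were tight and apart (0.88, SE 0.08; adjusted p = 0.00038). Xpc, the other damage sensor of the route, read 7.69, 7.62 and 7.86 against 7.48, 7.11 and 7.24, without overlap and in the opposite direction (-0.45, SE 0.13; adjusted p = 0.037). Leaving out single arrays ended the Xpc call in every case but EGFP-positive replicate 1 (adjusted p from 0.066 to 0.11), as did the choice of the most variable probe set per gene (0.057). The helicase genes Ercc2 (-0.03) and Ercc3 (-0.04), the nuclease genes Ercc1 (0.06) and Ercc5 (0.24) and the scaffold gene Xpa (0.19) had differences within 1.2 times their standard errors, which were 0.11 to 0.20. Mismatch repair was represented by 3 genes. Msh6, which reads mispaired bases, read 11.04, 11.05 and 11.02 against 11.54, 11.51 and 11.38, apart and higher (0.44, SE 0.08; adjusted p = 0.0079). It was the one S phase gene of the set that rose. Msh3, which reads larger loops, had 0.04 (SE 0.10) by its brightest probe set, and Pms2, of the complex that cuts the new strand, had -0.68 (SE 0.23; adjusted p = 0.063) and passed under several alternatives. These were the mean of its probe sets (-0.42, adjusted p = 0.024), limma's variance trend (0.042), the filter on dim genes at the ceiling (0.050) and the fit without EGFP-negative replicate 3 (-0.90, adjusted p = 0.020), in a range of 0.020 to 0.16.

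Among the sensors and checkpoint kinases, 3 of 7 genes fell and 0 rose. Chek1, the kinase that restrains the cycle when forks stall, read 7.28, 7.37 and 7.36 against 4.91, 5.50 and 4.02. Its EGFP-positive arrays were spread over more than 1 log2 unit yet all far below, a 5.77-fold fall (-2.53, SE 0.35; adjusted p = 0.0025). Chek2, its counterpart for breaks, had -0.28 (SE 0.11; adjusted p = 0.11), and the upstream kinases Atr, which senses single strands, and Atm, which senses breaks, had -0.29 (SE 0.18) and -0.08 (SE 0.15). Atr passed without EGFP-positive replicate 3 (-0.49, adjusted p = 0.022, in a range of 0.021 to 0.55). The Mre11a, Rad50 and Nbn proteins form the complex that tethers broken ends. Nbn read 7.71, 7.60 and 7.64 against 7.20, 7.06 and 7.05, tight and apart (-0.55, SE 0.09; adjusted p = 0.0039). Mre11a read 8.05, 7.77 and 8.03 against 6.86, 7.61 and 7.10, apart by little at replicate 2 (-0.76, SE 0.20; adjusted p = 0.031), and its call was lost when any single array except EGFP-positive replicate 2 was left out (0.053 to 0.098). Rad50 read 6.63, 6.82 and 6.5 against 5.10, 6.44 and 6.13, without overlap, but its EGFP-positive replicate 1 lay 1.03 below the next array and it did not pass (-0.76, SE 0.34; adjusted p = 0.14). Without that array the Rad50 difference was -0.37.

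The probe sets of a gene differed in size and, for some genes, in sign, though 0 of the 47 genes had calls in both directions. The 47 genes had 99 probe sets annotated to them alone, of which 35 fell and 5 rose in the fit over 45037 probe sets, where 12.6% fell and 11.6% rose. Among the 16 called genes read by several probe sets, 0 had one that was called in the opposite direction. Rad54l fell at 4 of 4 probe sets (-1.92 to -1.08), Parp1 at 4 of 4 (-1.11 to -0.88) and Chek1 at 4 of 5. Fancb fell at both, by at least 5.81-fold at the dimmer one, where the EGFP-positive mean of 3.24 lay under the background ceiling. Averaged over a gene's probe sets, the falls were smaller for Exo1 (-1.50), Chek1 (-1.57), Fanca (-0.60), Fancd2 (-0.53) and Fanci (-0.44), and all of these stayed called (adjusted p up to 0.014). Fancm (-0.49, adjusted p = 0.094) did not stay called. For Exo1, Chek1, Fancd2 and Fanci the average includes a probe set under the ceiling on all 6 arrays, which cannot show a fall. Fancd2 was called at 1 of 4 probe sets. A probe set above the ceiling on all 6 arrays was not called for Fancd2 (-0.28) and Fanca (-0.25), with overlapping groups. Among genes whose brightest probe set did not pass, a dimmer one fell for Atr (-0.58, adjusted p = 0.020 over probe sets) and rose for Msh3 (adjusted p = 0.018). The EGFP-negative mean of that Msh3 probe set, 3.39, lay under the background ceiling, so its rise to 4.73 is at least 2.05-fold. In this fit over probe sets the brightest probe sets of Fancg, Fancm, Neil1, Xpc and Xrcc6 had adjusted p between 0.053 and 0.065 and were not called.

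**Figure D4:**
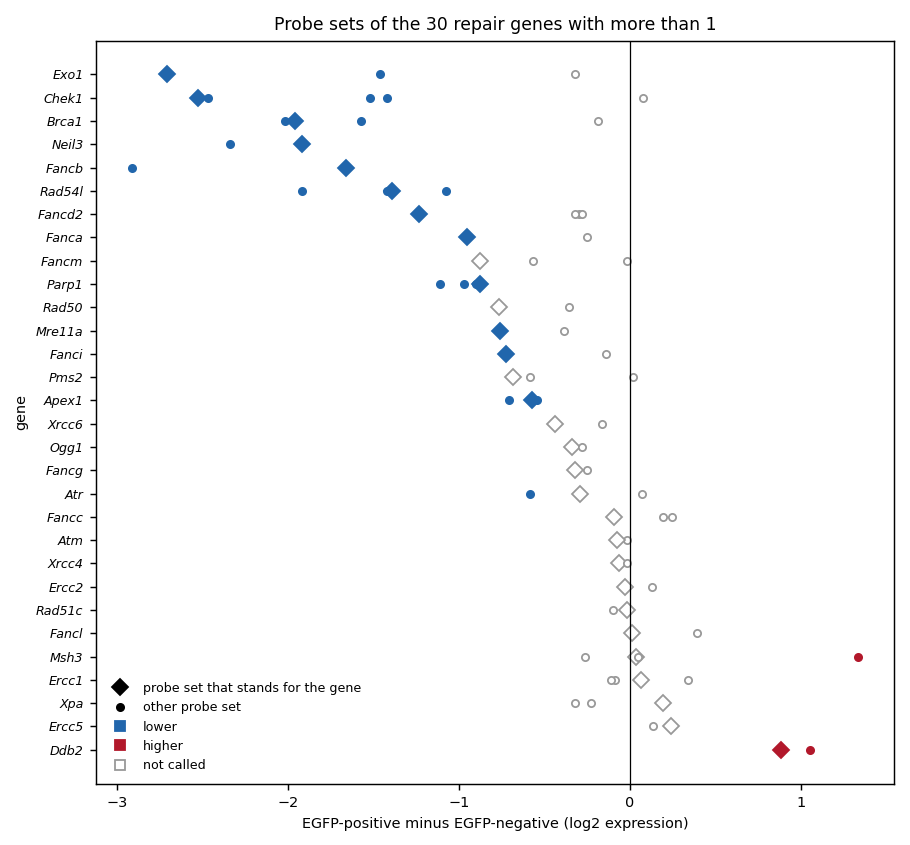
Difference at each probe set (x axis, log2 expression) of the 30 repair genes with more than 1 (y axis); diamonds are the probe sets that stand for the gene, and filled symbols passed an adjusted p of 0.05 over probe sets. The probe sets of Rad54l, Parp1 and Apex1 all lie to the left and were called, while Msh3 has 1 called probe set to the right, plotted at its measured difference although its EGFP-negative mean is under the background ceiling, and others between -0.26 and 0.05.

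Repair genes outside the 47 were read from a further list of 95, of which 81 were measured. Of the 81, 26 fell (32.1%) and 6 rose (7.41%), with a median of -0.26, where 17.2% of all genes fell and 16.0% rose. The share that fell was 50% in damage sensing, 40% in homologous recombination and 37.5% in the Fanconi anaemia pathway. In translesion synthesis and direct reversal it was 30%, and in base excision repair 25%, with 33.3% rising. End joining (20%) and nucleotide excision repair (16.7%) had about the share of all genes. In homologous recombination 8 of 20 fell and 0 rose, with Rad51b at -1.77 (SE 0.12) and the chromatin helicase gene Hells at -1.25 (SE 0.13). In the Fanconi anaemia pathway 3 of 8 fell and 0 rose, among them Ube2t, which supplies the ubiquitin (-1.95, SE 0.19), and Usp1, which removes it (-1.28, SE 0.14). In damage sensing 6 of 12 fell, such as Rad1 of the checkpoint clamp (-1.63, SE 0.09) and Topbp1, the activator of Atr (-1.58, SE 0.07), and 1 rose, Trp53bp1 (0.40, SE 0.08). In base excision repair 3 of 12 fell and 4 rose. The falls included Fen1, the flap nuclease of replication and repair (-0.85, SE 0.07), and Tdp1 (-1.30, SE 0.23), while the rises included Polb, the gap-filling polymerase (1.00, SE 0.11), and Mpg, a glycosylase of alkylated bases (0.94, SE 0.09). In nucleotide excision repair 2 of 12 fell, Ddb1, the partner of Ddb2 (-0.55, SE 0.08), and Gtf2h4 (-0.96, SE 0.24), and 0 rose. In end joining 1 of 5 fell, Polq, the polymerase of the alternative route, at least 1.42-fold lower with 3 of 3 EGFP-positive arrays under the ceiling. In translesion synthesis and direct reversal 3 of 10 fell, including Rad18 (-1.60, SE 0.12) and Alkbh2 (-0.88, SE 0.08), and 1 rose, Mgmt, which strips alkyl groups from guanine (0.35, SE 0.08). Adjusted p of the genes named here ran up to 0.025, that of Gtf2h4 (limma, Benjamini-Hochberg), and 0 of 2 mismatch repair genes passed.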

How the data were processed

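Total RNA of 6 sorted samples was amplified from the 3' end and hybridised to 1 Affymetrix array each, per the labels' protocols. The authors deposited log2 values per probe set, made by RMA per the submitters' processing notes (version not given in the sources used here). RMA quantile-normalizes the arrays, so a change in total RNA per cell cannot be read. Of 45037 probe sets that are not controls, GEO's platform annotation gave 1 gene for 34945. Symbols were checked by Entrez identifier against GRCm38.p6. A gene was read through its brightest probe set annotated to it alone (18192 genes), without a filter on dim genes. Groups came from the sample titles. All 6 arrays were fitted with limma 3.58.1 (R 4.3.3; lmFit, eBayes, two-sided, Benjamini-Hochberg over all genes, threshold 0.05), with no covariate. A value under 3.61, the highest of 27 bacterial poly-A control probe sets, was taken as background, and a fold against a group under it is a lower bound. Arrays carry no depth, and their number, 3 per group, limits the precision. Scripts were tested on simulated data. The genes, lists and routes were chosen with earlier results of these data known. Values on every array are given for genes called with a log2 difference of at least 1 in size, for called rises and for the smallest p of a route, and some further genes were added after their values were seen. The further repair genes named are the called ones with the smallest p, up to 2 per route and direction. Faap100 and Fance, which were not called, are named besides, because they lay above the range of the core subunits. The promoter words were chosen after the data were seen. Listed genes without a probe set of their own were not analysed here.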

Additional observations from a re-analysis of the deposited data

How the results depend on the processing

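Of the 26 calls among the 47 repair genes, 15 falls and 3 rises (Xrcc5, Ddb2 and Msh6) kept their call under all 16 alternatives (or 15, where a filter dropped the gene), and no called gene changed sign. Fancd2, Fancg, Fancm, Xpc, Neil1, Xrcc1, Xrcc6 and Mre11a lost it under some. Of the genes that did not pass, Rad54b, Brca2, Bard1, Atr, Lig4, Msh3, Ogg1 and Pms2 passed under some. Over these alternatives 15 to 24 genes fell and 3 or 4 rose. Over all genes 2252 to 3557 fell and 2180 to 3282 rose, beside 3132 and 2913 in the main fit. Same-numbered arrays showed no shared deviation from their group means (correlations between -0.01 and 0.01), which cannot tell whether the numbers pair the samples. With the number as a replicate block Fancg, Fancm, Mre11a, Xpc, Xrcc6 and Neil1 lost their calls (adjusted p from 0.064 to 0.11), and Bard1 passed (adjusted p = 0.016). Leaving out single arrays put the median of the 47 between -0.52 and -0.41, that of end joining between -0.43 and -0.071 and that of damage sensing between -0.57 and -0.37. With genes brighter than the median gene only, the medians were -0.34 for all 32 repair genes left, -0.90 for recombination, -0.32 for Fanconi genes, 0.44 for mismatch repair (1 gene) and -0.29 for damage sensing, since dimmer genes were dropped. With the mean of all probe sets they were -0.44 over all, -0.46 for Fanconi and 0.29 for mismatch genes, and with the most variable probe set -0.55, 0.44 for mismatch and -0.91 for base excision repair. With Mre11a, Rad50 and Nbn moved to recombination and Exo1 to mismatch repair, mismatch repair stood at -0.32 and damage sensing at -0.28. Only genes that did not pass changed sign: Fancc (0.12 with the mean and 0.25 with the most variable probe set), Xpa (-0.12 and -0.32), Ercc2 (0.048 and 0.13), Ercc1 (-0.11, most variable) and Rad51c (0.0069 with a further quantile normalization and 0.0067 with a shift to the same median). Without single arrays the ranges were -0.17 to 0.13 for Rad51c, -0.25 to 0.019 for Fancc, -0.15 to 0.15 for Fancl, -0.022 to 0.12 for Msh3, -0.033 to 0.14 for Ercc1, -0.18 to 0.065 for Ercc2, -0.13 to 0.081 for Ercc3, -0.17 to 0.031 for Xrcc4 and -0.21 to 0.012 for Atm. The cause of these moves was not tested.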
